A study of Mus musculus with 10 samples.

Results

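Transcripts of blood leukocytes were compared between mice after 48 h of SD (sleep deprivation) and mice after 48 h of SASD, the other condition named in the labels. The comparison rests on 2 of the 10 libraries of the series, 1 a side, and covers all 32285 genes of the count table. All libraries came from C57/BL6J mice, with blood as the tissue and leukocyte as the cell type in the labels, and each library held the blood RNA of 3 mice in a pool. The groups used are SD 48 h, SASD 48 h, SD and SASD at 6, 12 and 24 h, SASD 120 h, and Con, the control at 0 h. Neither the sex and age of the mice nor the hour of bleeding nor the way SD and SASD were done is given in the sources used here. Blood was drawn behind the eye under pentobarbital in every group, and RNA was taken from whole blood, so red cells and platelets can contribute to it.

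Neutrophils mature in the bone marrow in steps that leave a mark on their RNA. Promyelocytes transcribe the genes of the primary (azurophil) granules, myelocytes and metamyelocytes those of the secondary (specific) granules, and band and segmented cells those of the tertiary granules and of the surface receptors that guide them out of the marrow. Cells divide up to the myelocyte step, and transcripts of primary granule proteins are scarce in the neutrophils that normally circulate. In bulk RNA, fewer cells of a type and less RNA per cell cannot be told apart, and this holds for every value below.

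The deposited counts summed to 13927134 in SD 48 h and 24818986 in SASD 48 h. Levels are given as raw counts and as CPM, counts scaled to a common library size with TMM factors. This is 1 factor per library, which adjusts for depth and lessens the effect of differing make-up but does not remove it. With this scaling SASD 48 h was 1.94 times as deep as SD 48 h. A ratio is the CPM in SD 48 h over that in SASD 48 h, followed by its exact 95% counting interval (Clopper-Pearson), which covers counting error only. A gene was measured when its mean count in the pair was at least 25, and was counted as higher or lower when it differed at least 2-fold with a prior count of 2. A gene with few counts in 1 library could pass this minimum through the other, which favours large ratios among the genes measured. With 1 library a side, no difference here has a replicate check and none has a p-value.

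Ptprc, which encodes the leukocyte antigen CD45, had 28619 counts in SD 48 h and 63781 in SASD 48 h, a ratio of 0.872 (0.860 to 0.884). Haemoglobin genes took 0.316% of counts in SD 48 h and 0.275% in SASD 48 h, against 3.57% to 6.96% in the 7 other SD and SASD libraries. The 48 h libraries thus stood apart from these 7, together with Con at 0.727%, and the part of this in any comparison across times was not tested.

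Of 12608 measured genes, 532 (4.22%) were at least 2-fold higher in SD 48 h and 221 (1.75%) at least 2-fold lower, 753 (5.97%) in all. The whole counting interval lay past 2-fold for 311 genes (2.47%) that were higher and for 35 (0.278%) that were lower. The median log2 ratio over all measured genes was 0.00355. The higher genes were well counted, with a median of 251.5 counts in SD 48 h and 146.5 in SASD 48 h, whereas the lower genes had medians of 15 and 81. The scatter of gene levels shows Camp, Mpo, Ngp and Ltf far above the line of equality and the lower genes, fewer at this count minimum, below.

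**Figure D1:**
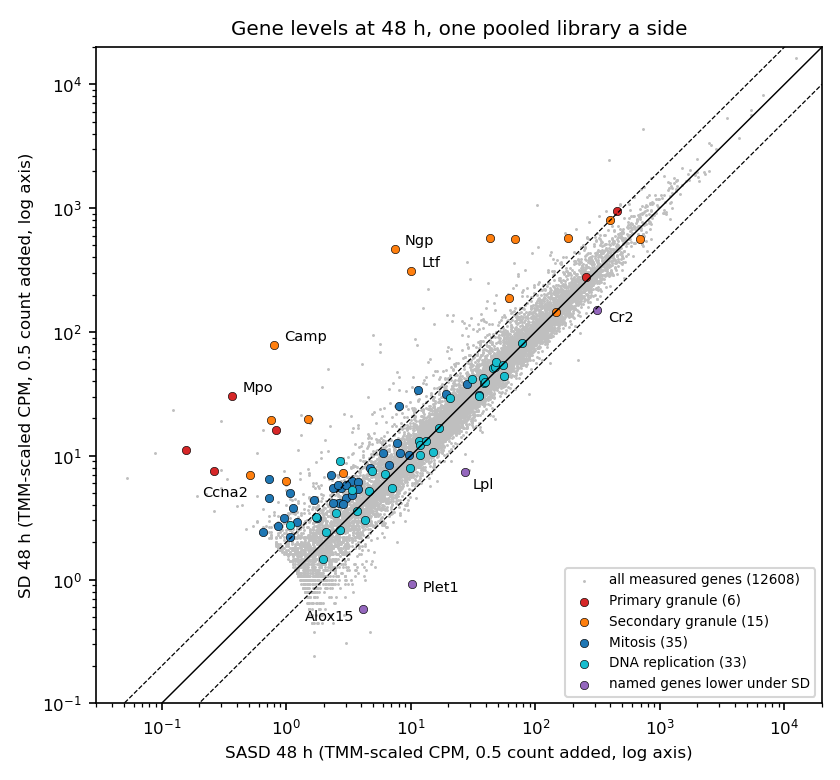
Each point is 1 of 12608 measured genes, with its CPM in SASD 48 h on the horizontal and in SD 48 h on the vertical log axis, after 0.5 count was added. The solid line marks equal levels and the dashed lines 2-fold differences. Camp, Mpo, Ngp and Ltf lie far above the upper dashed line, while DNA replication genes follow the line of equality.

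Genes for granule proteins of early neutrophil stages were prominent among the highest ratios. The 10 highest ratios with a prior count, in order, belonged to Prok2, Camp, Mpo, Saa3, Ngp, Cxcl2, Lipg, Elane, Ltf and Itgb2l, and 6 of these, Camp, Mpo, Ngp, Elane, Ltf and Itgb2l, are on the primary or secondary granule lists. In all, 45 genes had a ratio of 8 or more.

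Of the 9 primary granule genes, 6 were measured, and 5 of these 6 were at least 2-fold higher in SD 48 h, beside 4.22% of all measured genes. The median log2 ratio of the 6 was 4.33. Mpo, Elane, Ctsg and Prtn3 had at most 23 counts in SASD 48 h and passed the count minimum only through SD 48 h. The 5 of 6 and the median therefore depend on that minimum. Srgn, with 12904 counts in SASD 48 h, had a ratio of 2.08, and the lowest log2 ratio of the 6 was 0.141. Mpo (ENSMUSG00000009350, chr11:87793581-87804413 on the plus strand in mm10), which encodes myeloperoxidase, the enzyme that makes hypochlorous acid, had 441 counts in SD 48 h and 10 in SASD 48 h. These counts corresponded to 30.2 and 0.352 CPM, a ratio of 85.7 (46.2 to 180.0). The Mpo level was 0.489 CPM in Con and between 0 and 0.657 CPM in the 7 other SD and SASD libraries, so SD 48 h stood alone among the 10.

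The serine proteases of the same granules were also highest in SD 48 h among the 10 libraries. Elane, which encodes neutrophil elastase, had 161 counts in SD 48 h and 4 in SASD 48 h, a ratio of 78.2 (30.0 to 290.6), and at most 0.0939 CPM in the 7 other libraries, against 11.02 in SD 48 h. Ctsg, which encodes cathepsin G, had 110 and 7 counts, a ratio of 30.5 (14.3 to 77.8). Prtn3, which encodes proteinase 3, had 235 and 23 counts, a ratio of 19.9 (12.9 to 31.9). Prtn3 reached 5.82 CPM in 1 of the 7 other libraries, below the 16.1 CPM of SD 48 h.

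The remaining primary granule genes differed less or were too low to count. Srgn, which encodes the proteoglycan core that packs granule proteins and is made by many leukocytes, had 13805 and 12904 counts, a ratio of 2.08 (2.03 to 2.13). Ctsc, which encodes the protease that activates the granule proteases and is also widely made, had 4073 and 7180 counts, a ratio of 1.10 (1.06 to 1.15). Ms4a3 at 39 and 3 counts, Prss57 at 14 and 9 and Bpi at 0 and 4 were under the count minimum. SD 48 h was above Con and all 7 others for Mpo, Elane, Ctsg, Prtn3 and Ctsc.

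The genes of the secondary granules were higher as well, with larger counts. Of 16 genes 15 were measured, 13 were at least 2-fold higher and 0 lower, beside 4.22% and 1.75% of all measured genes, and their median log2 ratio was 3.05. Camp, Itgb2l and Fcnb, at 22, 21 and 14 counts in SASD 48 h, passed the count minimum only through SD 48 h. Camp (ENSMUSG00000038357, chr9:109847379-109849617, minus strand), the precursor gene of the antimicrobial peptide CRAMP, had 1137 counts in SD 48 h and 22 in SASD 48 h. At 77.8 and 0.775 CPM this was a ratio of 100.5 (66.0 to 160.9). Con held 1.56 CPM of Camp and the 7 other libraries between 0.751 and 1.21, so the level in SASD 48 h lay within their range and that in SD 48 h far outside it.

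Ngp, which encodes neutrophilic granule protein, had 6812 and 210 counts, or 466 and 7.40 CPM, a ratio of 63.1 (55.0 to 72.7). Ltf, which encodes the iron-binding protein lactoferrin, had 4496 and 286 counts, or 308 and 10.1 CPM, a ratio of 30.6 (27.1 to 34.6). Itgb2l, which encodes an integrin subunit of neutrophil precursors, had 285 and 21 counts, a ratio of 26.4 (16.9 to 43.3). SASD 48 h was under Con for Ngp and Itgb2l and above it for Ltf, at 10.1 against 8.86 CPM, and in all 3 genes SD 48 h exceeded every other library.

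Fcnb, which encodes the lectin ficolin B, had 101 and 14 counts, a ratio of 14.0 (7.98 to 26.6). Olfm4, which encodes olfactomedin 4, had 289 and 42 counts, a ratio of 13.4 (9.65 to 19.0), and Lcn2, which encodes the siderophore-binding lipocalin 2, 8322 and 1227 counts, a ratio of 13.2 (12.4 to 14.0). Mmp8, which encodes neutrophil collagenase, had 8278 and 1937 counts, a ratio of 8.31 (7.90 to 8.73). Abca13, Hp, Pglyrp1, Ceacam10 and Chil3 were also at least 2-fold higher, with ratios from 2.01 for Chil3 to 6.25 for Abca13, whose SASD 48 h count of 28 was expected to be 59.2% exon background.

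Cybb, which encodes the large subunit of the phagocyte oxidase and is also made by monocytes and B cells, had a ratio of 0.824 (0.803 to 0.845). Serpinb1a, which encodes an inhibitor of the granule proteases, had 0.985 (0.935 to 1.04). Orm1, at 25 and 7 counts, was not measured. Cybb and Serpinb1a had 19580 and 4186 counts in SASD 48 h, and Chil3 and Hp, which were higher at ratios of 2.01 and 3.17, had 11296 and 5178.

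**Figure D2:**
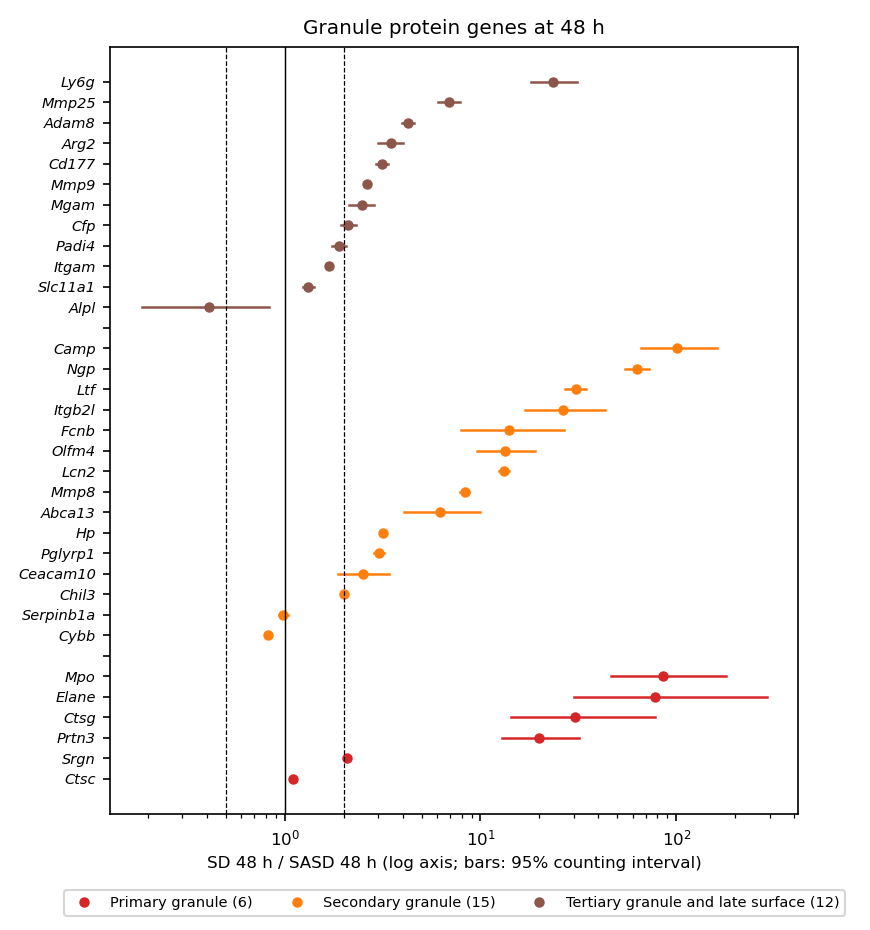
Ratios of SD 48 h over SASD 48 h with 95% counting intervals on a log axis, for the measured genes of the primary granules (6), secondary granules (15) and tertiary granules and late surface (12). The solid line marks a ratio of 1 and the dashed lines 2-fold. Camp, Mpo and Elane lie to the far right, and Alpl alone lies to the left of the lower dashed line.

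The Camp, Ngp and Ltf genes lie on chromosome 9 within 109847379 to 111042767 (mm10), a stretch of 1195 kb, and Prss57, Prtn3 and Elane within 107 kb of chromosome 10 (79781474 to 79888215). Promoters are shown for granule genes with high ratios that hold the letters searched, since the transcription factors PU.1 and the C/EBP family are known to drive granule genes. Camp held neither set of letters in 250 bases. Each sequence is the 200 bases before the RefSeq start (GRCm38.p6), which can differ from the gene start given above, written 5′ to 3′ on the strand of the gene. Capitals mark the C/EBP letters TTGCNNAA in Ngp and Ltf and the PU.1 letters GAGGAAGT in Elane and Prtn3, on either strand. The positions are chr9:110419608-110419807 (plus strand) for Ngp, chr9:111019092-111019291 (plus) for Ltf, chr10:79886112-79886311 (plus) for Elane and chr10:79879467-79879666 (plus) for Prtn3.
Ngp: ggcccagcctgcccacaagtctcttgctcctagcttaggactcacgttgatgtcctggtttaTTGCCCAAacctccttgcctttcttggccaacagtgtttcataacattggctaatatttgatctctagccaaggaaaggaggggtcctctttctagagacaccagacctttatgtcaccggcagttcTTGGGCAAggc
Ltf: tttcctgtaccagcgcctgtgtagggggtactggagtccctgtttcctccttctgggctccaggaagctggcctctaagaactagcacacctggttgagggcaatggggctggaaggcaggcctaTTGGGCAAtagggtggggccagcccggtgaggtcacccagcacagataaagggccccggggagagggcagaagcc
Elane: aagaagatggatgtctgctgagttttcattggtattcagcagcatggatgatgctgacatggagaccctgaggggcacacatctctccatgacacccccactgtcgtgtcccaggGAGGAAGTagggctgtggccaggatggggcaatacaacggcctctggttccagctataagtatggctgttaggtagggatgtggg
Prtn3: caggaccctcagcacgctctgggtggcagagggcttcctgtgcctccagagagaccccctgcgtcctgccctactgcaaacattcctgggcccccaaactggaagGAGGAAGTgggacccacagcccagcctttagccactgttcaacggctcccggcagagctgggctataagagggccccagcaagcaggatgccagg
In the 250 bases before the start, TTGCNNAA on either strand was present in 5 of 14 promoters (35.7%) of 13 secondary granule genes and in 0 of 9 of 8 primary granule genes, against 9.56% of all 32851 promoters. GAGGAAGT was present in 4 of 9 primary (44.4%) and 3 of 14 secondary granule promoters (21.4%), against 2.44% of all. Over the 12315 promoters of measured genes the shares were 7.64% for TTGCNNAA and 2.84% for GAGGAAGT. A C/EBP match can share bases with a CCAAT match on the other strand, as it does in Ltf. A match describes the letters of the window and is not a binding site.

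Most genes of the tertiary granules and of the late surface were higher too. Of 12 measured genes 8 were at least 2-fold higher and 1 lower, beside 4.22% and 1.75% of all measured genes, with a median log2 ratio of 1.35. Ly6g, the surface antigen by which mouse neutrophils are sorted, had 736 counts in SD 48 h and 61 in SASD 48 h, a ratio of 23.5 (18.0 to 31.0). Mmp25, a membrane-bound matrix protease, followed at 6.90 (6.09 to 7.84) and Adam8, a shedding protease, at 4.28 (3.99 to 4.59). Arg2, Cd177, Mmp9, Mgam and Cfp had ratios of 3.48, 3.14, 2.64, 2.47 and 2.12. Alpl, which encodes the alkaline phosphatase of secretory vesicles, went the other way with 10 and 47 counts, a ratio of 0.414 (0.186 to 0.829). Alpl passed the count minimum only through SASD 48 h.

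Among transcription factors of granulopoiesis 3 of 12 measured genes were at least 2-fold higher and 0 lower, beside 4.22% and 1.75% of all measured genes. The median log2 ratio was 0.56. Cebpe, which encodes the factor required for the step to secondary granules, had 82 and 46 counts, a ratio of 3.46 (2.39 to 5.09). At 5.61 CPM it was higher in SD 48 h than in any of the 9 other libraries. Klf5 had 98 and 57 counts, a ratio of 3.34 (2.39 to 4.72), and Cebpd 910 and 773, a ratio of 2.29 (2.08 to 2.52), but both were higher in some of the 7 other libraries, up to 9.17 and 124 CPM against 6.71 and 62.3 in SD 48 h.

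Factors of the earliest steps differed less than 2-fold, in both directions. Gfi1, which represses monocyte genes in granulocyte precursors, had 101 and 153 counts, a ratio of 1.28 (0.988 to 1.66). Myb, a factor of dividing progenitors, had 137 and 392 counts, a ratio of 0.679 (0.555 to 0.827), and Irf8, which directs monocyte and dendritic cell fate, 0.844 (0.812 to 0.876). Cebpa and Spi1 (PU.1) had ratios of 1.48 and 1.74.

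Markers of mature neutrophils differed in the same direction. All 24 measured members had a log2 ratio above 0, 22 were at least 2-fold higher, beside 4.22% of all measured genes, and the median log2 ratio was 2.54. The medians of the early granule lists depend more on the count minimum, so the lists cannot be ranked by them. Prok2, which encodes the chemokine-like prokineticin 2, had 339 counts against 3, a ratio of 219.6 (74.5 to 1070.4), and 53.7% of its 3 counts in SASD 48 h was expected as exon background. Stfa2, which encodes a stefin, had 68 and 5 counts, a ratio of 26.4 (10.8 to 84.0). Prok2 and Stfa2 passed the count minimum only through SD 48 h. S100a8, an abundant calprotectin subunit, had 35455 and 11180 counts, a ratio of 6.16 (6.03 to 6.30). Csf3r, the G-CSF receptor, and Msrb1, a methionine sulfoxide reductase, fell just short of 2-fold at 1.96 and 1.79.

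The other genes of the 10 highest ratios had almost no counts in SASD 48 h. Saa3, an acute phase protein gene, had 154 counts in SD 48 h and 2 in SASD 48 h, a ratio of 149.7 (40.7 to 1246.9). Cxcl2, which encodes a chemokine that attracts neutrophils, had 96 and 1, a ratio of 186.6 (32.7 to 7446.1), and Lipg, which encodes endothelial lipase, 277 and 8, a ratio of 67.3 (33.7 to 157.4). The exon background was expected to give 109%, 174% and 49.5% of the SASD counts of Saa3, Cxcl2 and Lipg, so the SASD counts of Saa3 and Cxcl2 did not exceed the expected background. In the 7 other libraries these genes reached at most 0.939, 1.41 and 2.12 CPM, against 10.5, 6.57 and 19.0 in SD 48 h.

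Receptors that hold neutrophils in the marrow or guide them out were higher in 6 of 11 genes and lower in 0, beside 4.22% and 1.75% of all measured genes. Their median log2 ratio was 1.01. Cxcr4, the receptor for the marrow chemokine that retains neutrophils, had a ratio of 2.06 (1.99 to 2.13), and Cxcr2, which acts against it and is on the mature neutrophil list, 3.18 (3.08 to 3.28). C5ar1 and Ccr1, receptors for complement C5a and for inflammatory chemokines, had 3.34 and 3.39. Itga4, an integrin subunit that lymphocytes and monocytes also carry, had 0.789 (0.769 to 0.809).

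More primary granule genes were measured in the 48 h pair than in the earlier pairs. The median log2 ratio of the measured primary granule genes was 0.08, 0.20 and 0.40 at 6, 12 and 24 h, over 2, 2 and 3 genes, and 4.33 over 6 genes at 48 h. Mpo, Elane and Ctsg were under the count minimum at 6, 12 and 24 h, and Prtn3 at 6 and 12 h. The medians thus rest on different genes and do not follow the same set over time. Srgn, measured at each time, had ratios of 1.03, 1.30, 0.953 and 2.08. Mpo counts at 6, 12 and 24 h were 1, 1 and 7 under SD and 2, 1 and 0 under SASD. Prtn3 was already higher at 24 h, with 62 counts under SD and 7 under SASD, a ratio of 5.44 (2.49 to 14.1). Secondary granule genes had medians of 0.05, 0.99 and 1.07 at the earlier times, over 10, 10 and 11 genes. The median at 48 h was 3.05 over 15 genes, again not the same set. Camp had between 9 and 12 counts in the earlier SD libraries, near 1 CPM, while Lcn2 already differed, with 247 against 59.1 CPM at 12 h and 436 against 142.0 at 24 h.

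Genes of chromosome segregation and of DNA replication, which mark dividing cells, were read next, since promyelocytes and myelocytes divide and mature neutrophils do not. Mitosis genes were higher in SD 48 h, and replication genes as a group were not. Of 35 measured mitosis genes 34 had a log2 ratio above 0, and the median was 0.86. At least 2-fold higher were 14 and lower 0, beside 4.22% and 1.75% of all measured genes. Ccna2, Plk1 and Cdk1, at 20, 20 and 18 counts in SASD 48 h, passed the count minimum only through SD 48 h. Of 33 measured replication genes 18 lay above 0, 2 were at least 2-fold higher and 0 lower, and the median was 0.08, which scaling by total counts turned to -0.05.

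Ccna2, the cyclin A2 gene, had 95 counts in SD 48 h and 20 in SASD 48 h, or 6.504 and 0.704 CPM, a ratio of 9.23 (5.66 to 15.8). Its level in SD 48 h lay within the 2.53 to 10.4 CPM of the 7 other libraries, and that in SASD 48 h was the lowest of all 10. Plk1, which encodes a kinase that drives entry into mitosis, had 66 and 20 counts, a ratio of 6.41 (3.84 to 11.2). At 4.52 CPM in SD 48 h it exceeded all other libraries, of which the highest held 3.04 CPM.

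Ccnb2, a cyclin of mitotic entry, had 73 and 30 counts, a ratio of 4.73 (3.05 to 7.50). Cdk1, its kinase partner, had 35 and 18, a ratio of 3.78 (2.08 to 7.09). Birc5, which encodes the chromosomal passenger protein survivin, had 55 and 32, a ratio of 3.34 (2.12 to 5.34). All 3 were highest in SD 48 h among the 10 libraries.

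Mki67, which encodes the proliferation antigen Ki-67, had 499 and 327 counts, or 34.2 and 11.5 CPM, a ratio of 2.97 (2.57 to 3.42). Top2a, which encodes the topoisomerase that untangles sister chromatids, had 367 and 227 counts, a ratio of 3.14 (2.66 to 3.72). Con held 13.4 CPM of Mki67 and the 7 other libraries 9.29 to 16.997, so SASD 48 h lay within their range and SD 48 h above it. Over the list, SD 48 h exceeded Con and all 7 others for 24 of 35 mitosis genes, and SASD 48 h was under all 8 for 7, among them Ccna2, Cdc20 and Ube2c.

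The summed level of the 35 mitosis genes was 328.3 CPM in SD 48 h, 195.3 in SASD 48 h, 222.5 in Con and 234.4 to 350.4 in the 7 other libraries. SD 48 h thus lay inside the range of these 7, whereas SASD 48 h was the lowest of the 10. Cenpa, which encodes the centromeric histone variant, had 448 and 999 counts, a ratio of 0.872 (0.778 to 0.975), and was the 1 mitosis gene below a ratio of 1.

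Among replication genes, Rrm2, which encodes the regulated subunit of ribonucleotide reductase, had 132 and 77 counts, a ratio of 3.33 (2.50 to 4.47). Clspn, a checkpoint adaptor at the fork, had 40 and 30 counts, a ratio of 2.59 (1.57 to 4.31), with 20.1% of the SASD count expected as exon background. Pcna, the sliding clamp of the polymerases, had 1198 and 2205 counts, a ratio of 1.06 (0.984 to 1.13). The helicase subunit genes Mcm2 to Mcm7 had ratios from 0.857 for Mcm5 to 1.17 for Mcm7. The median replication gene had 156 and 337 counts and the median mitosis gene 80 and 80, so the replication list was the better counted.

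**Figure D3:**
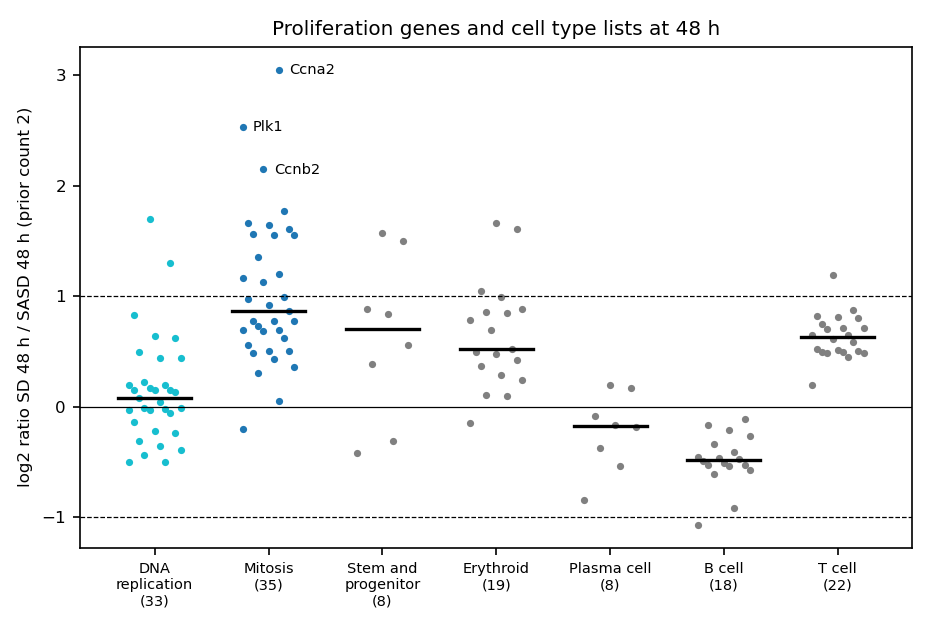
Each point is the log2 ratio of SD 48 h over SASD 48 h (prior count 2) of 1 measured gene, by list, with the number of genes in brackets and the list median as a bar. Dashed lines mark 2-fold. The mitosis genes lie almost all above 0 with a median of 0.86, and the DNA replication genes spread around a median of 0.08.

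The medians of other lists of cells that can divide in blood samples were below the 0.86 of the mitosis genes. They were 0.70 for stem and progenitor, 0.63 for T cell and -0.48 for B cell genes. Of 8 measured stem and progenitor genes 2 were at least 2-fold higher, beside 4.22% of all measured genes. They were Kit, the stem cell factor receptor also found on mast cells, with 150 and 96 counts (ratio 3.04, 2.34 to 3.97), and Cd34 with 33 and 21 (3.05, 1.72 to 5.56). Cd34, at 21 counts in SASD 48 h, passed the count minimum only through SD 48 h. Sox4, a factor of lymphoid progenitors, had a ratio of 0.7502 (0.659 to 0.852). Erythroid genes were at least 2-fold higher in 3 of 19, beside 4.22% of all measured genes, with a median of 0.52. Against Con and all 7 other libraries, 14 of the 19 were lower in SD 48 h and 18 in SASD 48 h. Of 8 measured plasma cell genes 0 were higher and 0 lower, with a median of -0.17. The part of these cells in the mitosis counts was not tested.

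Promoters of Ccnb2 (chr9:70421555-70421754, minus strand) and Cdk1 (chr10:69352913-69353112, minus) are shown because genes of mitosis are known to share a CCAAT box and a cell cycle homology region (CHR). Capitals mark CCAAT and TTTGAA, read on either strand, so that ATTGG is CCAAT on the opposite one. The windows are the 200 bases before the start, again from RefSeq on GRCm38.p6.
Ccnb2: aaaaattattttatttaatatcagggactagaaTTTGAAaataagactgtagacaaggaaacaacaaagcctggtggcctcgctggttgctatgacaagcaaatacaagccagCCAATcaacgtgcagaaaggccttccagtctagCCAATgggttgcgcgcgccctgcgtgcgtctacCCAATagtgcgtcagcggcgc
Cdk1: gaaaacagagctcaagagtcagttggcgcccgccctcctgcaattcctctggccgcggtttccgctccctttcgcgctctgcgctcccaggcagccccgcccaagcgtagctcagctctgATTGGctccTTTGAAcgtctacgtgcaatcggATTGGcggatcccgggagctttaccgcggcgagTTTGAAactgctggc
In 250 bases, CCAAT was present in 28 of 35 promoters (80.0%) of 33 mitosis genes and 18 of 33 (54.5%) of 28 replication genes, against 33.8% of all promoters. TTTGAA was present in 12 of 35 (34.3%) and 3 of 33 (9.09%), against 15.99%, and both together in 12 of 35 mitosis promoters (34.3%), against 5.55%. The E2F letters GGCGGGAA were present in 4 of 33 replication promoters (12.1%) and 0 of 35 mitosis promoters, against 1.86%. Over the 12315 promoters of measured genes the shares were 35.1% for CCAAT, 11.2% for TTTGAA, 4.11% for both and 3.46% for GGCGGGAA. Ccnb2 and Cdk1 were shown because they hold both sets of letters. Plk1 held 1 CCAAT and 0 TTTGAA and is not shown, and Ccna2 had no entry among the promoters.

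A low level of reads over exons of silent genes can make low genes look expressed. It was measured with olfactory receptor genes, which serve the nose and were taken as silent in blood. Over 1134 such genes and 3659 kb of exons, SD 48 h had 712 counts and SASD 48 h 3073, a ratio of 0.450 (0.415 to 0.489). A count was present for 27.5% of these genes in SD 48 h and 61.7% in SASD 48 h, where 50.1% would be expected at the depth of SD 48 h. The background was 0.0133 and 0.0296 counts per exonic kb on the CPM scale, 0.0543 in Con and 0.00434 to 0.00575 in the 7 other libraries. Not every gene of the set looked silent. Olfr99 and Olfr164 had 2.19 to 4.32 and 1.22 to 3.21 CPM in those 7 libraries. They gave 55 and 25 of the 712 counts in SD 48 h and 123 and 129 of the 3073 in SASD 48 h, and were left in the set.

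**Figure D4:**
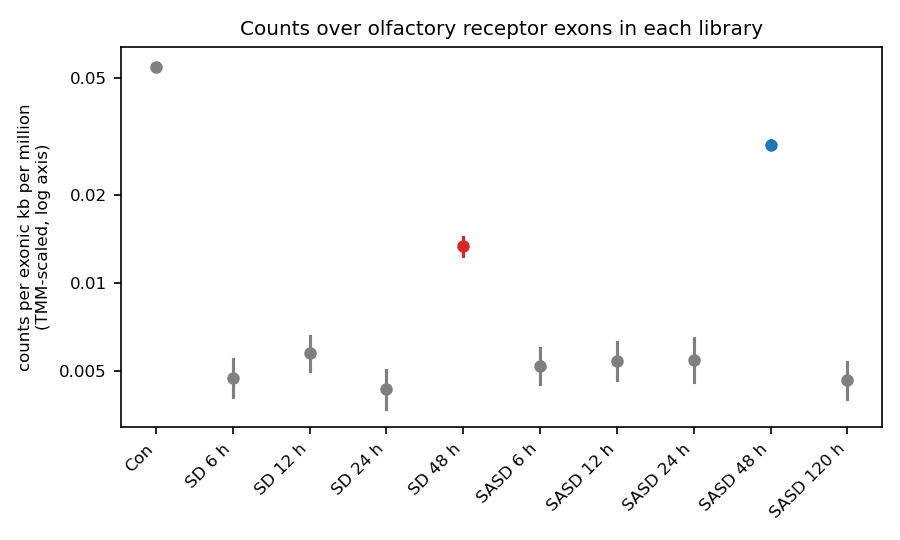
Counts over olfactory receptor exons per kb on the CPM scale (TMM-scaled, log axis) in each of the 10 libraries, with 95% counting intervals. SD 48 h (0.0133) and SASD 48 h (0.0296) lie between Con and the 7 other libraries, SASD 48 h being the higher of the pair.

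Further silent sets gave the same order. Vomeronasal receptor genes had 800 and 2454 counts, a ratio of 0.634 (0.584 to 0.687), and genes of keratin-associated proteins of hair 6 and 35, a ratio of 0.333 (0.115 to 0.801). Gm10800 and Gm10801, a neighbouring pair on chromosome 2, had ratios of 0.269 and 0.292. Gm10800 had 861 and 6214 counts, or 58.9 and 218.9 CPM, with 372.0 in Con and at most 1.71 in the 7 other libraries. Gm10800, Gm10801 and Gm21738 were counted as lower, and their levels followed the order of the background over the libraries.

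When the olfactory receptor density was taken off each gene in proportion to its exon length, 590 genes (4.68%) were higher and 217 (1.72%) lower. All 532 higher genes stayed at least 2-fold higher, and all but 4 of the 221 stayed lower. The expected background was at most 10% of the SASD 48 h count in 189 of the 221 lower genes (85.5%), with a median of 2.55%. A low share does not show that a gene is free of background. Gm10800, Gm10801 and Gm21738, whose levels followed the background, had expected shares of 0.00892%, 0.0478% and 0.0691%. For the highest ratios the expected background bears on the SASD count. It was 28.8% of the 10 counts of Mpo and 20.7% of the 4 of Elane, but 2.89% for Camp and 0.489% for Ngp.

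Genes lower in SD 48 h were fewer at the count minimum of 25 and were spread over several lists. With a mean count of at least 10 there were 691 lower genes, and with no minimum 3626 lower against 1373 higher among 32285 genes. A lower minimum adds genes near the floor, where olfactory receptor genes alone had a ratio of 0.450 (0.415 to 0.489). The part of this background in these numbers was not tested. At the minimum of 25, the 10 lowest were, in order, Slc6a14, Plet1, Lgr5, Alox15, Cyp11a1, Slc4a3, AI661453, Prss22, 1700027J07Rik and Krt13. Slc6a14 (ENSMUSG00000031089, chrX:21714896-21742355, plus strand), an amino acid transporter of epithelia, had 5 counts in SD 48 h and 133 in SASD 48 h, or 0.342 and 4.68 CPM, a ratio of 0.0731 (0.0233 to 0.175). Plet1 (ENSMUSG00000032068, chr9:50494525-50505482, plus), a surface protein of epithelial progenitors and some dendritic cells, had 13 and 289, a ratio of 0.0874 (0.0460 to 0.152). Con held 3.57 CPM of Slc6a14 and 6.96 of Plet1, and in both genes SD 48 h was the lowest of the 10 libraries.

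Several of the lowest genes encode proteins of epithelia. Krt13, a keratin of stratified mucosa, had 14 and 121 counts, a ratio of 0.225 (0.119 to 0.392). Muc4, a membrane mucin, had 29 and 221, a ratio of 0.255 (0.167 to 0.377). Prss22, a tryptase-like protease of airway epithelium, and Calml3, a calmodulin-like protein of epithelia, had 6 and 67 and 10 and 84 counts, ratios of 0.174 (0.0617 to 0.399) and 0.231 (0.107 to 0.447). These genes were picked out after their values were seen.

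These genes and AI661453, another of the 10 lowest, shared their highest library. Slc6a14, Plet1, AI661453, Prss22, Krt13, Calml3 and Muc4 were all highest in SASD 6 h among the 10 libraries, with 16.6, 31.5, 15.4, 11.4, 18.5, 9.70 and 20.8 CPM. SASD 6 h was the highest of the 8 libraries other than the pair for 38 of the 221 lower genes (17.2%), against 6.84% of all measured genes. Con was the highest for 92 (41.6%), against 17.8%.

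Genes of eosinophils and basophils divided. Of 18 genes on that list 9 were measured. Of these, 4 were lower and 1 was higher, beside 1.75% and 4.22% of all measured genes. Their median log2 ratio of -0.49 became 0.55 over the members with a mean count of at least 100. Of the 4, Alox15, Ms4a2 and Cd200r3, at 8, 18 and 17 counts in SD 48 h, passed the count minimum only through SASD 48 h. The 4 of 9 and the median therefore depend on that minimum. Alox15, the 12/15-lipoxygenase of eosinophils and macrophages, had 8 and 118 counts, a ratio of 0.132 (0.0556 to 0.268). Ms4a2, the beta chain of the high-affinity IgE receptor, had 18 and 145, a ratio of 0.241 (0.139 to 0.395). Cd200r3, an activating receptor of basophils and mast cells, had 17 and 123, a ratio of 0.269 (0.152 to 0.448), and Il5ra, the interleukin-5 receptor chain also carried by some B cells, 250 and 1014, a ratio of 0.479 (0.416 to 0.551).

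Other markers of these cells differed less or were too low to count. Cpa3, Mcpt8 and Fcer1a, of basophils and mast cells, had 18 and 45, 10 and 26, and 13 and 33 counts, ratios of 0.777 (0.424 to 1.37), 0.748 (0.322 to 1.602) and 0.766 (0.370 to 1.49). Siglecf, of eosinophils, had a ratio of 1.64 (1.32 to 2.04), and Epx, Il13, Ear1 and Ear6 had 0 counts in SD 48 h and 4, 4, 1 and 0 in SASD 48 h. Hdc, the histidine decarboxylase of basophils and neutrophils, was the higher member, with 3602 and 1187 counts and a ratio of 5.90 (5.52 to 6.30). For Alox15, Ms4a2 and Cd200r3 the level in SASD 48 h, at 4.16, 5.11 and 4.33 CPM, was above that of every other library.

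Macrophage genes also went both ways, with 3 of 13 measured members lower and 4 higher, beside 1.75% and 4.22% of all measured genes. Their median log2 ratio was 0.22, which became -0.53 over the members with a mean count of at least 100. Lpl, lipoprotein lipase, had 107 and 770 counts, a ratio of 0.270 (0.219 to 0.331), Siglec1, the sialoadhesin of tissue macrophages, 83 and 405, a ratio of 0.398 (0.311 to 0.506), and Slamf8 48 and 232, a ratio of 0.402 (0.288 to 0.551). Vcam1, an adhesion molecule of marrow and spleen macrophages, was higher with 61 and 24 counts, a ratio of 4.94 (3.04 to 8.29), as were Cd5l, C1qb and the iron exporter gene Slc40a1 at 3.40, 2.45 and 2.06. Vcam1 passed the count minimum only through SD 48 h. Marco, a scavenger receptor, had 0 and 11 counts and was not measured. Lpl varied widely over the 7 other SD and SASD libraries, from 6.04 CPM in SD 12 h to 34.0 in SASD 120 h, and both 48 h values lay inside that range.

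Among better counted lower genes, Ace, which encodes angiotensin-converting enzyme and marks nonclassical monocytes, had 1426 and 6492 counts, or 97.6 and 228.7 CPM, a ratio of 0.427 (0.403 to 0.452). Con held 109 CPM of Ace and the 7 other libraries 78.3 to 161.3, so SASD 48 h was above all and SD 48 h within their range. Other nonclassical monocyte genes pointed the same way at smaller size, with Adgre4 at 0.523, Nr4a1 at 0.576 and Cx3cr1 at 0.760. The list median was -0.40 over 15 genes, of which 1 was lower and 1 higher, beside 1.75% and 4.22% of all measured genes. Cr2, the complement receptor of B cells, had 2198 and 8952 counts, a ratio of 0.477 (0.455 to 0.5001). Hsph1, a heat shock chaperone chosen after its values were seen, had 820 and 3703 counts, a ratio of 0.430 (0.399 to 0.464).

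Cyp11a1, the enzyme that starts steroid synthesis and is also found in some T cells and basophils, had 8 and 111 counts, a ratio of 0.140 (0.0590 to 0.286), and lay under all other libraries in SD 48 h. Eps8l2, an actin regulator, had 15 and 120 counts, a ratio of 0.243 (0.132 to 0.417). Sbk3 had 7 and 64 counts, with 2.93 CPM in Con and at most 0.188 CPM in the 7 other libraries, which is the order of the exon background, although that was expected to give 4.19% of its SASD count. Lgr5 had 4 and 85 counts, of which 10.1% was expected as background, and Slc4a3 3 and 47, with 15.4%.

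**Figure D5:**
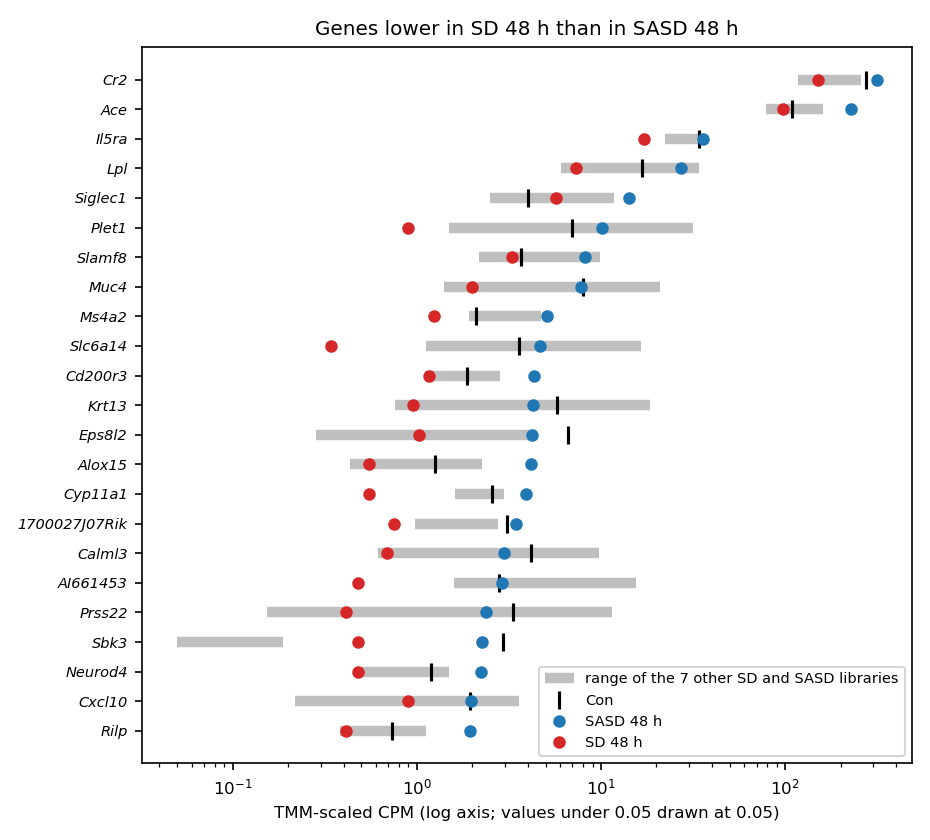
CPM on a log axis of 23 genes lower in SD 48 h, ordered by their level in SASD 48 h. Red and blue points are SD 48 h and SASD 48 h, black marks are Con, and grey bars span the 7 other SD and SASD libraries. Slc6a14, Plet1 and Cyp11a1 have the red point left of every other library, while Ace, Siglec1 and Alox15 have the blue point to the right.

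Both sides of the pair contributed to the lower genes. Of the 221, SD 48 h alone stood below the 8 other libraries for 78 (35.3%), SASD 48 h alone stood above them for 53 (24.0%), and both did so for 26 (11.8%). SASD 48 h lay below the 8 for 4 more, and neither library lay outside their range in such a way for 60. The same shares over all measured genes were 11.7%, 18.3% and 0.642%. Since the 2 libraries of the pair also chose these genes, the shares are a description. Of the 532 higher genes, SD 48 h alone stood above the 8 others for 232 (43.6%), SASD 48 h alone below them for 174 (32.7%), and both for 31 (5.83%), against 17.8%, 13.1% and 0.484% of all measured genes.

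The lower genes differed in kind from the rest. Protein-coding genes made up 148 of 221 (67.0%), against 92.0% of all measured genes and 92.1% of the higher ones. Antisense genes made up 28 (12.7%), against 2.29% of all measured genes, and noncoding genes including these 66 (29.9%), against 6.27%. The counts took no account of strand, so reads of an antisense gene and of its partner cannot be told apart. By chromosome, the share of lower genes ran from 2 of 575 measured genes on chromosome 3 (0.348%) to 14 of 410 on chromosome 16 (3.41%), beside 1.75% of all.

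At earlier times most of the lower genes did not differ in the same way, but at 6 and 12 h the share that did was above that of all measured genes. Of those measured at each time, 18 of 94 were lower under SD at 6 h, beside 0.867% of all measured genes, 2 of 77 at 12 h, beside 0.0797%, and 3 of 64 at 24 h, beside 3.08%. At 6, 12 and 24 h, 0, 0 and 4 of them were higher, beside 0.104%, 2.76% and 3.75%. Their median log2 ratios at 6, 12 and 24 h were -0.30, -0.06 and 0.01. Plet1 had 59 counts in SD and 331 in SASD at 6 h, 31 and 70 at 12 h, and 16 and 23 at 24 h, and its level in SD was lower at each time. Lpl went the other way at 24 h, with 271 counts in SD and 92 in SASD. The higher genes were also higher in 3 of 408 at 6 h, beside 0.104% of all measured genes, in 167 of 411 at 12 h, beside 2.76% of all measured genes, and in 133 of 403 at 24 h, beside 3.75%, where 50 were lower.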

How the data were processed

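Total RNA of blood, pooled from 3 mice per group, was sequenced in 10 libraries, 1 per group. Trimming used Trimmomatic 0.39, and STAR 2.7.9a aligned the reads to mm10 (submitters' processing notes). The deposited values were, per the file headers, raw counts of read pairs over exons per gene from featureCounts 2.0.3, with no strand option and no counting of reads that mapped to several places. Genes with close copies (Stfa1, Stfa2 and Stfa2l1, the haemoglobin genes, Ly6g) and antisense or overlapping genes are therefore uncertain.

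From these counts TMM factors over all 10 libraries were computed with edgeR 4.0.16 (R 4.3.3), and exact binomial intervals with scipy 1.17.1 (Python 3.11.15). Exon lengths and positions came from GENCODE release M21, which held 32235 of 32285 genes; the authors' annotation may differ. The members and the 25 gene lists (463 of 464 entries matched; Faim3 did not) were chosen with earlier results of these data known. Genes were named by rule: the 10 highest and 10 lowest ratios, the 15 lowest after background subtraction among lower genes with a background of at most 10%, up to 8 called members of each granule and proliferation list with its highest-count member, and the members furthest from 1 in each other list. Further genes were named as members of a list or, where said, after their values were seen. The ratio and background steps were tested on simulated data. Alternatives covered scaling (with DESeq2 1.42.0 size factors), count minimum, prior count, threshold and background.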

Additional observations from a re-analysis of the deposited data

How the results depend on the processing

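Named genes that differed at least 2-fold kept their direction under every alternative run. Among the others, Pcna and H2-DMa fell below 0 with total counts (log2 ratios of -0.05 and -0.06), as did the clock and DNA replication medians (-0.10 and -0.05), and Rhd and Errfi1 rose above 0 (0.45 and 0.04) with SASD thinned to equal depth, chosen after seeing the data. The count minimum moved the number of 2-fold genes most. With a mean count of at least 10, 691 genes were lower. With at least 100, 334 were higher and 56 lower. With no minimum, 1373 of 32285 genes were higher and 3626 lower, which takes in genes near the floor. Olfactory receptor genes, which are near it, had a ratio of 0.450. With the whole counting interval past 2-fold, 311 were higher and 35 lower. Higher genes made up 70.7% of the calls with TMM scaling and 57.7% with total counts, which gave 417 higher and 306 lower and shifted all log2 ratios by -0.13. The secondary granule median of 3.05 became 2.93 with total counts, 3.596 with the background subtracted, 3.73 with the 95th percentile of the olfactory receptor density subtracted (chosen after seeing the data), 2.79 with a minimum of 10 or none and 3.36 with one of 100. The primary granule median of 4.33 became 2.61 with a minimum of 100, which left 4 genes, and 3.74 with a prior count of 8. Of the other values, 19 counts, 255 list medians and 515 named-gene ratios moved by less than their counting interval or 1.5 times. No paired analysis was possible because each group is 1 library. Depth limited the lower genes, whose median count in SD 48 h was 15.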

Other observations

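Lymphocyte genes parted at 48 h. Over all measured genes 4.22% were at least 2-fold higher and 1.75% lower, so the 1 of 22 T cell genes past 2-fold was close to that share. T cell genes lay above a ratio of 1 in 22 of 22 measured members, with a median log2 ratio of 0.63 and 1 gene at least 2-fold higher, Il7r, the interleukin-7 receptor chain, at 5891 and 5005 counts (ratio 2.29, 2.20 to 2.38). SD 48 h was above Con and all 7 others for 7 of the 22, among them Cd3d and Ccr7, and SASD 48 h below them for 11, among them Cd4, Cd5 and Tcf7. B cell genes lay below 1 in 18 of 18, with a median of -0.48 and 1 gene at least 2-fold lower, Cr2; Fcer2a, the low-affinity IgE receptor, had a ratio of 0.532 (0.514 to 0.551). Of the MHC class II list 10 of 11 lay below 1, from 0.668 for H2-Ob to 0.906 for H2-Ab1, with H2-DMa at 1.05. NK and cytotoxic genes had a median of -0.05 with 0 of 19 past 2-fold.

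Platelet genes were above 1 in 17 of 17 measured members, 7 of them at least 2-fold higher, with a median of 0.91. Beside this and each list count that follows stand 4.22% higher and 1.75% lower among all measured genes. Pf4, platelet factor 4, had 5931 and 4715 counts (ratio 2.45, 2.35 to 2.54), and for all 17 SASD 48 h was the lowest of the libraries. Glucocorticoid-induced genes were at least 2-fold higher in 6 of 15, with a median of 0.73. Dusp1, a phosphatase of MAP kinases, had 5248 and 1910 counts (ratio 5.34, 5.07 to 5.63), Ddit4, an inhibitor of mTORC1, a ratio of 3.40 (3.15 to 3.67), and Tsc22d3, which encodes GILZ, 2.57 (2.50 to 2.63). Dusp1 at 359 CPM in SD 48 h was within the 94.8 to 489.3 CPM of the 7 other libraries, and at 67.3 CPM in SASD 48 h it was below all of them. Of the clock list 3 of 16 were at least 2-fold higher, Nfil3 at 2.95, Per2 at 2.28 and Nr1d1 at 2.28, while Arntl had 0.850 and the list median was 0.02 (-0.10 with total counts). Interferon-stimulated genes were lower in 1 of 26, Cxcl10 with 13 and 56 counts, and their median was -0.25; their summed level was 1332 CPM in SD 48 h and 1483 in SASD 48 h, against 2190 to 4878 in the 7 other libraries.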
